A study of Homo sapiens with 72 samples.

Results

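The 4 inhibitor of DNA binding (ID) genes and 5 feedback genes of the bone morphogenetic protein (BMP) and transforming growth factor beta (TGF-beta) pathway were followed through all 11 deposited comparisons of a study of the stress granule protein G3BP1. The 9 genes were taken by gene symbol from tables of 61541 genes each: ID1 (ENSG00000125968), ID2 (ENSG00000115738), ID3 (ENSG00000117318), ID4 (ENSG00000172201), SMAD6 (ENSG00000137834), SMAD7 (ENSG00000101665), SKIL (ENSG00000136603), BAMBI (ENSG00000095739) and LDLRAD4 (ENSG00000168675). Each of the 9 had a row in each table. The set was chosen by earlier results of these data, above all the fall of ID1 with arsenite in both rescues and the near loss of LDLRAD4 in the rescues. Those values, and others of ID1 that share libraries with them, are given as descriptions without a test, and the p-values of the other members are those of the fits over all genes.

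BMP and TGF-beta ligands bind pairs of serine/threonine kinase receptors, which phosphorylate SMAD proteins that enter the nucleus and switch on target genes. Among the fastest targets are the ID genes, whose products pair with E proteins such as TCF3, TCF4 and TCF12 and keep them off DNA, and a set of inhibitors that turn the pathway down again. SMAD6 and SMAD7 block the activated receptors, SKIL (SnoN) is a nuclear co-repressor of SMADs, BAMBI is a receptor decoy without a kinase domain, and LDLRAD4 is a membrane protein that restrains TGF-beta signalling by holding receptor-regulated SMADs.

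RNA came from poly-A libraries of 2 human cell lines. U2OS, an osteosarcoma line, was used in 2 RNA-seq experiments with 2 libraries a group, and FlpIn 293 Trex, an embryonic kidney line with stable FLAG-G3BP1 induced by tetracycline at 1 ug/mL for 24 h, in an RNA immunoprecipitation (RIP) with 3 immunoprecipitate and 3 input libraries. In the first U2OS experiment the groups were WT cells, a G3BP1/2 knockout, and the knockout transfected with a G3BP1 transgene (G3BP1 rescue). In the second, all 6 groups carried the G3BP1/2 knockout: untransfected knockout, knockout transfected with WT G3BP1 (wild-type rescue), and knockout transfected with G3BP1 lacking NTF2 (NTF2-deletion rescue), each without and with 200 uM sodium arsenite for 2 h. The NTF2-like domain is the dimerisation domain of G3BP1, and arsenite is an oxidative stressor that induces stress granules. Every rescue was a transient Lipofectamine transfection read at 24 h; no mock-transfected group is among the comparisons, so transfection and transgene cannot be told apart, and whether the knockout is 1 clone is not given in the sources used here. The labels do not say that replicates were separate cultures, so p-values measure only the spread between these libraries, which may be technical.

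Levels are given as normalised reads, whole reads per gene worked back from the deposited base means and divided by a size factor of each library within its experiment. Libraries held 10793184 to 27755473 gene reads in the second experiment and 34399292 to 46640400 in the first. G3BP1 itself was at 19022 and 18087 normalised reads in WT cells, 12629 and 12603 in the knockout and 20373 and 20086 in the first rescue. In the second experiment G3BP1 was at 3815 and 3884 in the knockout, 621709 and 591137 in the wild-type rescue and 839200.0 and 804718 in the NTF2-deletion rescue. G3BP2 was at 8622 and 8091 in WT, 6610.1 and 6399 in the first knockout and 1677 and 1660.2 in the second. The knockout thus kept transcript of both genes, and the transgene level over knockout was far lower in the first rescue than in the second. Of the U2OS markers, COL1A1, SPARC, VIM, RUNX2 and ALPL were present in every group, whereas group means of SP7 did not pass 1.60 reads, those of BGLAP 10.5 and those of COL1A2 27.7. Of the markers of other cell types, PECAM1 and HBB stayed at or below 13.4 reads and PTPRC at or below 42.0, while EPCAM lay between 46.2 and 510 and CDH1 between 4.64 and 36.9. In bulk RNA, fewer cells of a type and less RNA per cell cannot be told apart.

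The promoter windows of 5 members are shown because, in the second experiment, ID1, ID3 and SMAD7 were higher in the rescues than in the knockout while SMAD6 and SKIL were lower. Each runs from 250 bases before to 50 bases after a RefSeq transcription start in GRCh38.p14, 5′ to 3′ on the gene's strand. SMAD7 has 3 such windows, of which the most upstream is shown, and the tables do not tell which start was used. Capitals mark GTCT and its complement AGAC, the core that SMADs bind, together with the cyclic AMP response element TGACGTCA and the GC-rich SMAD motif GGCGCC. The windows lie at chr20:31605039-31605338 (plus strand, ID1), chr1:23559452-23559751 (minus, ID3), chr18:48950916-48951215 (minus, SMAD7), chr15:66701986-66702285 (plus, SMAD6) and chr3:170357465-170357764 (plus, SKIL).
ID1: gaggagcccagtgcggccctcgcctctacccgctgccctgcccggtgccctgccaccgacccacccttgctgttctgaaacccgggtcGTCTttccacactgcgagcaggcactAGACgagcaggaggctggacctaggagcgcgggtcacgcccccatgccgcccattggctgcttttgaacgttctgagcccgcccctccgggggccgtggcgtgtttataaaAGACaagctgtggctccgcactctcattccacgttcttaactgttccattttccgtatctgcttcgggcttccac
ID3: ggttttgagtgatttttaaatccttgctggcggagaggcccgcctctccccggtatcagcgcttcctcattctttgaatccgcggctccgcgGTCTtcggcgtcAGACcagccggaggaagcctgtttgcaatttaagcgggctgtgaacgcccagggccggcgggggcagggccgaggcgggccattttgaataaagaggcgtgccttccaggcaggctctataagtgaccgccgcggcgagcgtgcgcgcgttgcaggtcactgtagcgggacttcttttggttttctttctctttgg
SMAD7: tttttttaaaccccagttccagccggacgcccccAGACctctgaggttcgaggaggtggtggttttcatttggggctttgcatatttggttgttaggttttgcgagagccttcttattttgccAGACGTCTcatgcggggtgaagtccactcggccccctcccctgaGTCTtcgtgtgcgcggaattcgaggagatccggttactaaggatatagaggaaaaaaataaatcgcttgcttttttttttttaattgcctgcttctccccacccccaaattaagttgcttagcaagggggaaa
SMAD6: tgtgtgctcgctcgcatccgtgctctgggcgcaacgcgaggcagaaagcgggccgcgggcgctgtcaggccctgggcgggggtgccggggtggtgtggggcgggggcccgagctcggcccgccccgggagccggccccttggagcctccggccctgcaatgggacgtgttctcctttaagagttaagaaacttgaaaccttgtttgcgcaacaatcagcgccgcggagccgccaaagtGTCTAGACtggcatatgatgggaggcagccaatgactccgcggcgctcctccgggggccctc
SKIL: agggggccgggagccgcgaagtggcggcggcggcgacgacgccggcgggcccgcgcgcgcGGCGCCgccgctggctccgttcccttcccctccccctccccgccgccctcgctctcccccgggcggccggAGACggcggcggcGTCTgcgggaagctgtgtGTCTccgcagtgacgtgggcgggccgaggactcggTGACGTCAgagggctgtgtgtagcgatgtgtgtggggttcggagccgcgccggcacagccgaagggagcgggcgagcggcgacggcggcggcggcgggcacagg
The SMAD6 window held the full palindrome GTCTAGAC, made of GTCT and AGAC back to back, beginning at position -12, where -1 is the last base before the start. That palindrome occurred in 0.202% of all 35116 windows searched, on both strands at once since it reads the same on each. Of the members with a RefSeq window, SKIL alone held TGACGTCA, at position -54, a motif found in 1.85% of windows. GTCT or AGAC stood in 84.0% of windows, and the ID1 window held 3, ID3 2, SMAD7 4, SMAD6 2 and SKIL 3. GGCGCC, found in 19.2% of windows, occurred 1 time in the SKIL window and in none of the other 4 shown.

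In the first experiment, which asked what loss of G3BP1 and G3BP2 does to unstressed cells, all 4 ID genes and SMAD7 were lower in the knockout than in WT cells and back near the WT level in the rescue. The authors' deposited table called 6 of 9 members lower and 1 higher in the knockout than in WT, beside 19.4% of all tested genes called lower and 18.4% higher. The median log2 fold change of the members was -0.52, that of all genes tested 0.01. When the deposited Wald statistics were divided by their robust spread over genes, which takes the bulk of all differences as error, no member was called for knockout over WT or WT over rescue, and 2 (ID3, LDLRAD4) for knockout over rescue.

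ID1 was at 6127 and 5940.2 normalised reads in WT, 3987 and 4106 in the knockout and 6292 and 6224 in the rescue. Both knockout libraries lay below all others, and WT was 1.49-fold above the knockout. For knockout over WT, the authors' deposited table put ID1 at -0.58 (standard error 0.0597, adjusted p = 5.37e-21) on the log2 scale. Both rescue libraries of ID1 lay above both WT libraries.
ID2 was the ID gene with the deepest fall, from 304 and 313 in WT to 137 and 118 in the knockout, with 298 and 403 in the rescue. The rescue libraries of ID2 lay on either side of the WT libraries. In the authors' deposited table its log2 fold change was -1.21 (standard error 0.212, adjusted p = 8.42e-08) for knockout over WT.
ID3 stood at 2899 and 2817 in WT, 1386 and 1420.1 in the knockout and 3388 and 3239 in the rescue, a 2.04-fold difference between WT and knockout. The authors' deposited table gave -1.02 (standard error 0.0793, adjusted p = 1.14e-36) for knockout over WT. As for ID1, both rescue libraries of ID3 exceeded both WT libraries, and for ID3 the authors' deposited table called WT lower than rescue, at -0.23 (standard error 0.0652, adjusted p = 0.00159).
ID4 fell from 435 and 405 in WT to 215 and 177 in the knockout and stood at 387 and 431 in the rescue. Rescue and WT libraries overlapped, and the authors' deposited table gave -1.05 (standard error 0.186, adjusted p = 9.70e-08) for knockout over WT.

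Of the inhibitors, SMAD7 followed the ID genes and SMAD6 did not. SMAD7 was at 1489 and 1410.2 in WT, 992 and 1022 in the knockout and 1504 and 1399.7 in the rescue. The knockout lay below both other groups, which overlapped each other. The authors' deposited table gave SMAD7 -0.52 (standard error 0.0985, adjusted p = 6.13e-07) for knockout over WT and -0.53 (standard error 0.0941, adjusted p = 1.30e-07) for knockout over rescue.
SMAD6 was at 2242 and 1946 in WT, 2318 and 2086 in the knockout and 1993 and 2008 in the rescue, and WT overlapped both other groups. It was called in none of the 3 tables, the authors' deposited table giving 0.07 (standard error 0.0918, adjusted p = 0.632) for knockout over WT.
SKIL was highest in WT, at 7753 and 7806, against 6006 and 6160.2 in the knockout and 6023 and 6198 in the rescue. Knockout and rescue overlapped, so SKIL differed from WT in both. In the authors' deposited table, knockout over WT was -0.36 (standard error 0.0541, adjusted p = 3.00e-10) and WT over rescue 0.32 (standard error 0.0505, adjusted p = 1.33e-09).
BAMBI, with 269 and 274 in WT, 378 and 314 in the knockout and 348 and 352 in the rescue, had WT libraries below all others. It was not called for knockout over WT, where the authors' deposited table gave 0.33 (standard error 0.183, adjusted p = 0.150), whereas limma called it higher in the knockout, at 0.36 (standard error 0.127, adjusted p = 0.0146). For WT over rescue, too, limma called BAMBI, at -0.36 (standard error 0.125, adjusted p = 0.0141), and the authors' deposited table gave -0.35 (standard error 0.162, adjusted p = 0.0754).
LDLRAD4 was the member called higher in the knockout, with 4424 and 4391 in WT, 6982 and 6424 in the knockout and 2620.1 and 2782 in the rescue. The 3 groups did not overlap, and the order was knockout, WT, rescue from high to low. The authors' deposited table gave LDLRAD4 0.60 (standard error 0.0625, adjusted p = 1.37e-20) for knockout over WT and 0.68 (standard error 0.0634, adjusted p = 5.36e-25) for WT over rescue.

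Against the first rescue, the authors' deposited table called 5 members lower in the knockout (ID1, ID2, ID3, ID4, SMAD7) and LDLRAD4 higher, beside 21.5% and 16.1% of all genes. The values were -0.64 for ID1, -1.31 for ID2, -1.24 for ID3 and -0.99 for ID4 in the authors' deposited table. The comparisons of the knockout with WT and with the rescue share the knockout libraries. For WT over rescue, 2 members were called higher (SKIL, LDLRAD4) and ID3 lower in the authors' deposited table, where 15.2% and 20.4% of all genes were called.

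**Figure D1:**
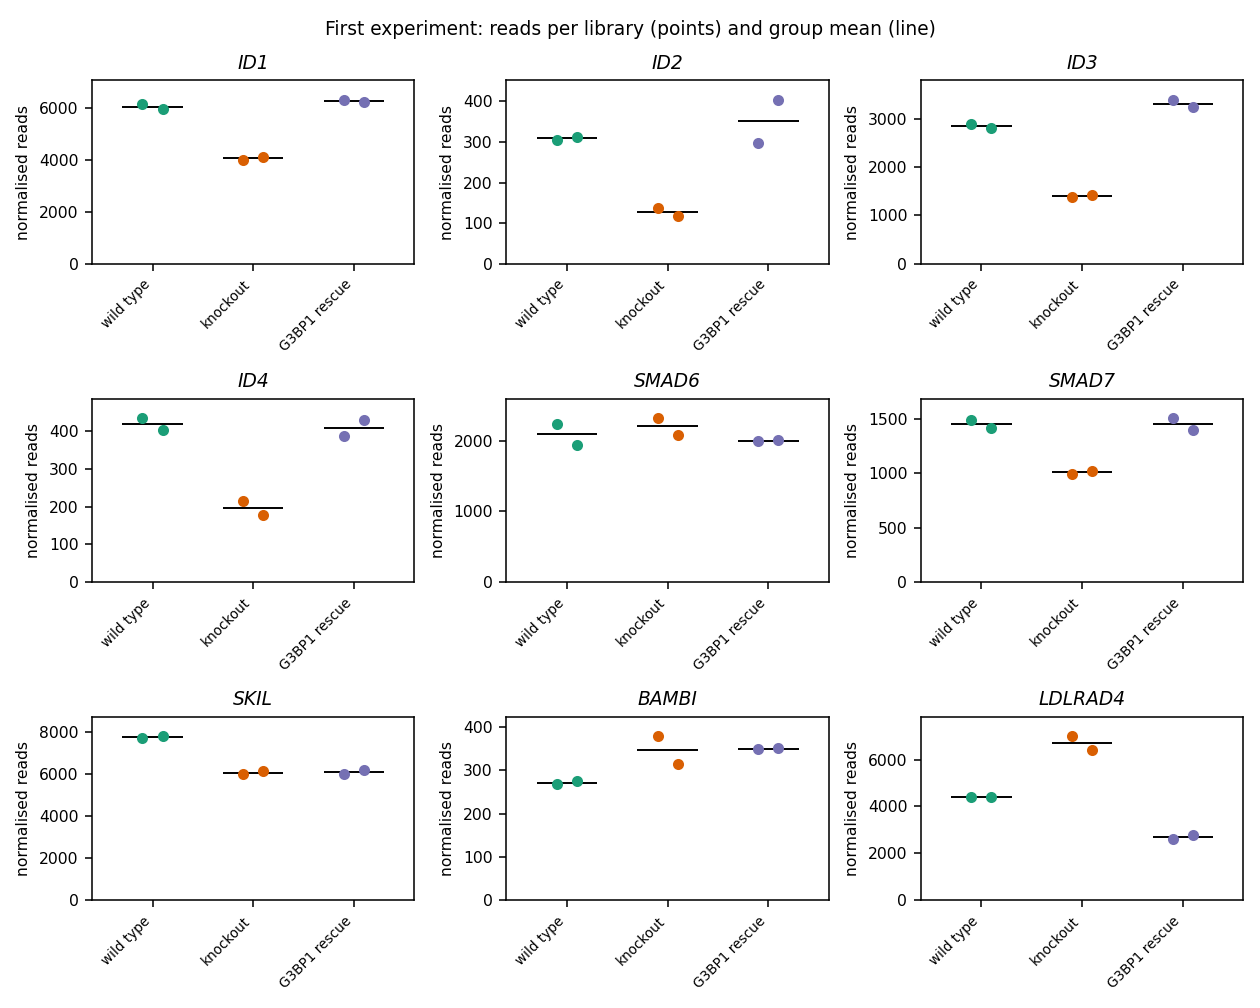
Normalised reads of each gene (linear axis from 0) in the 2 libraries (points) of WT, knockout and G3BP1 rescue cells of the first experiment, with the group mean as a line. The knockout points of ID1 (3987 and 4106), the other ID genes and SMAD7 lie below both other groups, and the 3 groups of LDLRAD4 are apart.

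The second experiment compared the knockout with 2 transgenes, with and without the NTF2 domain, at a higher transgene level. Before arsenite, ID1, ID3 and SMAD7 were higher in both rescues than in the knockout, SMAD6 and SKIL were lower, and LDLRAD4 was nearly lost. The authors' deposited table called 3 members higher and 3 lower in the wild-type rescue, where 23% of all genes were called higher and 19.1% lower. In the NTF2-deletion rescue the authors' deposited table also called 3 higher and 3 lower, beside 22.8% and 18.7% of all genes. The counts include ID1 and LDLRAD4, the members by whose values the set was chosen. Both comparisons share the knockout libraries. Genes whose base mean was 100 or more had a median log2 fold change of 0.18 and 0.17 in these comparisons, and centring on it left each member on the same side of the threshold. With the Wald statistics divided by their robust spread, no member other than LDLRAD4, whose fall chose the set, was called in either comparison.

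ID1 was at 1148 and 1282 normalised reads in the knockout, 1938 and 2027 in the wild-type rescue and 2176 and 1966 in the NTF2-deletion rescue. All 4 rescue libraries lay above both knockout libraries, 1.63-fold and 1.71-fold on average. The authors' deposited table gave ID1 0.72 (standard error 0.0909) in the wild-type rescue and 0.79 (standard error 0.0963) in the NTF2-deletion rescue.
ID3 rose further, from 267 and 328 to 681 and 805 in the wild-type and 765 and 681 in the NTF2-deletion rescue. There was no overlap between rescues and knockout. By the authors' deposited table this was 1.32 (standard error 0.159, adjusted p = 1.02e-15) and 1.28 (standard error 0.157, adjusted p = 2.61e-15).
ID2 and ID4 had few reads. ID2 was at 38.1 and 43.2 in the knockout, 71.7 and 71.6 in the wild-type and 71.9 and 59.9 in the NTF2-deletion rescue, all 4 rescue libraries above the knockout and the rescues overlapping each other. The authors' deposited table did not call ID2, at 0.75 (standard error 0.382, adjusted p = 0.106) in the wild-type rescue, whereas limma on the recovered reads did, at 0.82 (standard error 0.262, adjusted p = 0.00581). ID4 was at 49.0 and 58.0, 85.8 and 99.6 and 75.9 and 97.3 in the same order. It too was not called in the authors' deposited table, at 0.74 (standard error 0.347, adjusted p = 0.0721), and was called by limma, at 0.79 (standard error 0.237, adjusted p = 0.00318); here too all rescue libraries lay above the knockout.

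SMAD7 stood at 346 and 333 in the knockout, 780.2 and 782 in the wild-type rescue and 654 and 635 in the NTF2-deletion rescue. The 3 groups did not overlap, with the wild-type rescue highest. The authors' deposited table gave SMAD7 1.21 (standard error 0.139, adjusted p = 5.53e-17) and 0.93 (standard error 0.146, adjusted p = 1.36e-09).
SMAD6 went the other way, from 714 and 852 in the knockout to 123 and 115 in the wild-type and 119 and 115 in the NTF2-deletion rescue. The knockout was 6.58-fold and 6.73-fold above the rescues, and the authors' deposited table gave -2.64 (standard error 0.176, adjusted p = 5.68e-49) and -2.67 (standard error 0.175, adjusted p = 1.07e-50). In the first experiment the rescue and knockout values of SMAD6 had been close, as given above.
SKIL fell from 2138 and 2091 to 1202 and 1285 and 1128 and 1256. In the authors' deposited table this was -0.74 (standard error 0.0858, adjusted p = 6.23e-17) and -0.80 (standard error 0.0902, adjusted p = 8.24e-18), and no rescue library reached the knockout level.
BAMBI was at 75.1 and 83.9 in the knockout, 104 and 88.4 in the wild-type and 82.0 and 87.7 in the NTF2-deletion rescue. Knockout and NTF2-deletion rescue overlapped, and BAMBI was not called, the authors' deposited table giving 0.28 (standard error 0.319, adjusted p = 0.537) in the wild-type rescue.
LDLRAD4 had 2895 and 2971 normalised reads in the knockout, 43.5 and 35.8 in the wild-type rescue and 55.7 and 68.5 in the NTF2-deletion rescue. On average the knockout was 74.0-fold and 47.2-fold above them, and the authors' deposited table gave -6.04 (standard error 0.179) and -5.45 (standard error 0.153). The first rescue had lowered LDLRAD4 by far less, knockout being 2.48-fold above it.
Another TGF-beta target with a similar contrast was CDKN2B, which encodes the cell cycle inhibitor p15. CDKN2B was at 0 and 1.00 normalised reads in WT, 698 and 658 in the knockout and 98.7 and 93.6 in the rescue of the first experiment. In the second it was at 378 and 364 in the knockout, 14.1 and 4.50 in the wild-type and 14.2 and 5.30 in the NTF2-deletion rescue. COL1A1, an osteoblast marker and TGF-beta target, was at 9882 and 10133 in the knockout and 3309 and 3365 in the wild-type rescue. In the first experiment COL1A1 had the opposite order, with 23919.6 and 22926 in the knockout and 76284 and 69670.4 in the rescue. Differences of this size were read 24 h after transfection, and whether the rescue and untransfected cells of the second experiment were of the same knockout line was not tested, so a difference between the cells and the transgene cannot be told apart in any value of rescue over knockout.

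**Figure D2:**
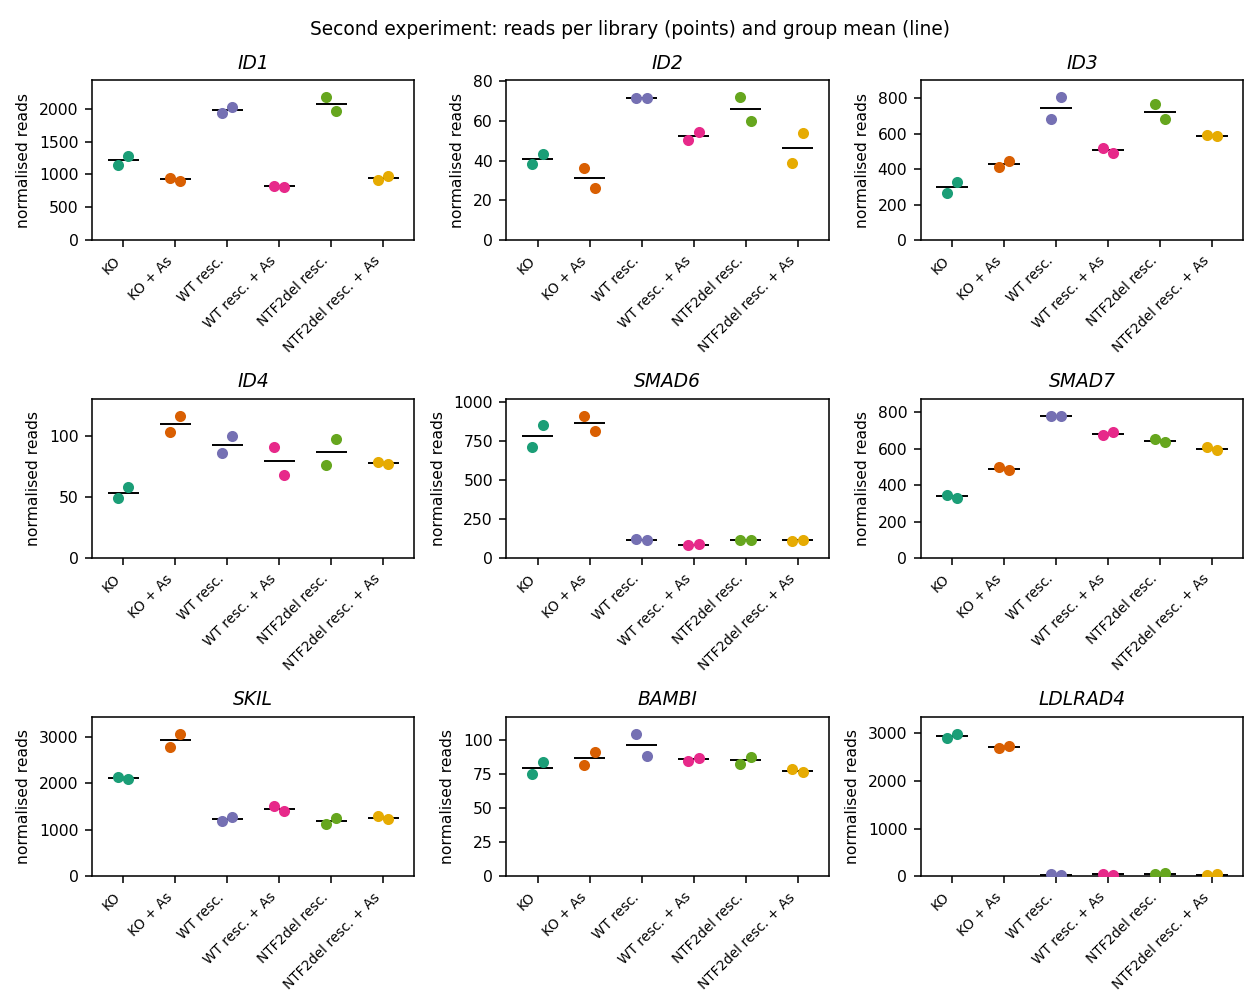
Normalised reads of each gene (linear axis from 0) in the 2 libraries (points) of the 6 groups of the second experiment, with group means as lines; KO is knockout, WT resc. and NTF2del resc. the rescues, As arsenite. Both rescues of ID1 start above the knockout and end with arsenite near it, while SMAD6, SKIL and LDLRAD4 separate knockout from rescue at either state.

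The arsenite response was measured in 3 backgrounds. In knockout cells arsenite was followed by higher ID3, ID4, SMAD7 and SKIL and lower ID1. The authors' deposited table thus called 4 members higher and 1 lower, beside 8.56% and 10.9% of all genes tested. Of the 8 members other than ID1, the authors' deposited table called SKIL higher and ID3 and SMAD7 lower in the wild-type rescue, against 8.18% and 12.2% of all genes. In the NTF2-deletion rescue the authors' deposited table called 0 of the 6 other members with an adjusted p, where 2.43% of all genes were called higher and 6.14% lower; 1 (ID3) had an unadjusted p under 0.05 and limma called 1. ID2 and LDLRAD4 had no adjusted p there. With the Wald statistics divided by their robust spread, no member was called in the knockout and, of the 8, ID3 alone in the wild-type rescue.

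ID1 fell in each background. It went from 1148 and 1282 to 952 and 907 normalised reads in the knockout, from 1938 and 2027 to 817 and 816 in the wild-type rescue and from 2176 and 1966 to 913 and 972 in the NTF2-deletion rescue. The treated libraries thus lay between 815.9 and 971.8 in every background, although the untreated rescues had started well above the knockout. The authors' deposited table gave ID1 -0.36 (standard error 0.106, adjusted p = 0.00514) in the knockout, -1.26 (standard error 0.0589) in the wild-type rescue and -1.04 (standard error 0.0787) in the NTF2-deletion rescue. The response of the wild-type rescue minus that of the knockout was -0.90 (standard error 0.121) on the log2 scale, and of the NTF2-deletion rescue minus the knockout -0.68 (standard error 0.132).
ID3 rose in the knockout, from 267 and 328 to 413 and 445, and fell in the wild-type rescue, from 681 and 805 to 521 and 491. In the NTF2-deletion rescue it went from 765 and 681 to 590.0 and 588, and in none of the 3 backgrounds did treated and untreated libraries overlap. The authors' deposited table gave 0.51 (standard error 0.165, adjusted p = 0.0139), -0.53 (standard error 0.0891, adjusted p = 4.14e-08) and -0.25 (standard error 0.101, adjusted p = 0.117) in that order; limma called ID3 in the NTF2-deletion rescue as well, at -0.29 (standard error 0.0847, adjusted p = 0.0136).
ID4 rose from 49.0 and 58.0 to 103 and 117 in the knockout, 2.05-fold, and was at 85.8 and 99.6 untreated and 90.9 and 67.6 treated in the wild-type rescue, where the groups overlapped. The authors' deposited table called it in the knockout, at 0.81 (standard error 0.269, adjusted p = 0.0174), and gave -0.16 (standard error 0.171, adjusted p = 0.608) in the wild-type rescue. ID2 was not called in any background, with 36.5 and 26.2 treated against 38.1 and 43.2 untreated reads in the knockout and -0.21 (standard error 0.312, adjusted p = 0.757) in the authors' deposited table.

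SMAD7 rose with arsenite in the knockout, from 346 and 333 to 501 and 483, and was lower in the treated wild-type rescue, at 674 and 692 against 780.2 and 782. The NTF2-deletion rescue had 654 and 635 untreated and 610.4 and 593 treated, again without overlap. The authors' deposited table gave 0.52 (standard error 0.150, adjusted p = 0.00462), -0.20 (standard error 0.0766, adjusted p = 0.0410) and -0.08 (standard error 0.100, adjusted p = 0.785); the call in the wild-type rescue was lost, at adjusted p = 0.0995, when adjusted over all genes with a p. Without the deeper library of either the treated or the untreated group, limma called neither SMAD7 nor SKIL in the wild-type rescue.
SKIL was raised from 2138 and 2091 to 2779.5 and 3061 in the knockout and from 1202 and 1285 to 1504 and 1411 in the wild-type rescue. In the authors' deposited table this was 0.47 (standard error 0.0825, adjusted p = 2.16e-07) and 0.21 (standard error 0.0614, adjusted p = 0.00544), with 0.08 (standard error 0.0829, adjusted p = 0.750) in the NTF2-deletion rescue, whose treated and untreated libraries overlapped.
SMAD6, BAMBI and LDLRAD4 were not called in any of the authors' arsenite tables. SMAD6 had 913 and 815 treated reads in the knockout, 84.2 and 88.0 in the wild-type and 113 and 117 in the NTF2-deletion rescue. In the wild-type rescue both treated libraries of SMAD6 lay below the untreated 123 and 115, and limma called it, at -0.47 (standard error 0.174, adjusted p = 0.0462), where the authors' deposited table gave -0.36 (standard error 0.162, adjusted p = 0.101). LDLRAD4 was at 2676 and 2718 in the treated knockout, 59.5 and 39.9 in the treated wild-type rescue and 36.0 and 43.1 in the treated NTF2-deletion rescue. In the NTF2-deletion rescue its untreated libraries, at 55.7 and 68.5, lay above both treated ones, and limma did not call the difference, at -0.64 (standard error 0.262, adjusted p = 0.106). The authors' deposited table gave LDLRAD4 -0.11 (standard error 0.0735, adjusted p = 0.382) in the knockout.

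**Figure D3:**
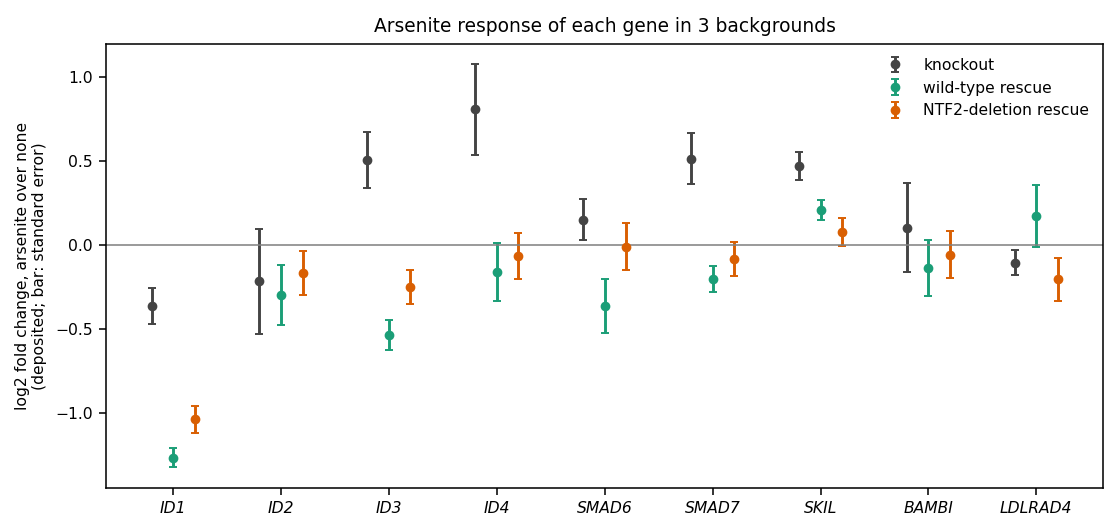
Log2 fold change of arsenite-treated over untreated cells for each gene (deposited values; bars are the standard error) in knockout, wild-type rescue and NTF2-deletion rescue. ID3 and SMAD7 are above 0 in the knockout and below 0 in the wild-type rescue, and ID1 is lower in both rescues than in the knockout.

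The difference in arsenite response between backgrounds was tested across all genes from the deposited fold changes and standard errors. Fold changes of each background were shrunk by a different amount, so unequal shrinkage enters these differences. Wild-type rescue minus knockout was called for 2 of the 8 members other than ID1, both lower, beside 2.68% of 15648 genes: ID3 at -1.04 (standard error 0.187, adjusted p = 2.52e-06) and SMAD7 at -0.72 (standard error 0.168, adjusted p = 0.00102). NTF2-deletion rescue minus knockout was called for 3 of the 8, again all lower, where 3.08% of genes were called lower. These were ID3 at -0.76 (standard error 0.193, adjusted p = 0.00255), SMAD7 at -0.60 (standard error 0.180, adjusted p = 0.0165) and SKIL at -0.39 (standard error 0.117, adjusted p = 0.0150). ID4 missed the threshold, at -0.97 (standard error 0.319, adjusted p = 0.0528) and -0.87 (standard error 0.302, adjusted p = 0.0540), and passed it with limma on the recovered reads, at -1.24 (adjusted p = 0.00303) and -1.18 (adjusted p = 0.00559). SMAD6 likewise was called by limma for the wild-type rescue minus knockout, at -0.63 (adjusted p = 0.0247), and not from the deposited values, at -0.51 (standard error 0.203, adjusted p = 0.157). For LDLRAD4 the difference was 0.28 (standard error 0.199), with a 95% interval of -0.11 to 0.67. The 2 differences share the knockout libraries.
With arsenite present in both, ID1 was at 952 and 907 in the knockout and 913 and 972 in the NTF2-deletion rescue, which overlapped, whereas both libraries of the wild-type rescue lay lower, at 817 and 816. ID4 was lower in the treated wild-type rescue than in the treated knockout, by limma -0.45 (standard error 0.175, adjusted p = 0.0215), the opposite order to that without arsenite. SMAD7 stayed higher in the treated wild-type rescue, by limma 0.47 (standard error 0.0749, adjusted p = 3.86e-07), and SKIL lower, at 1504 and 1411 against 2779.5 and 3061.

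Set against the untreated knockout, the arsenite-treated wild-type rescue had 2 members called higher (ID3, SMAD7) and 4 lower (ID1, SMAD6, SKIL, LDLRAD4) in the authors' deposited table, beside 25.1% and 19.8% of all genes. The same 2 and 4 members were called for the treated NTF2-deletion rescue in the authors' deposited table, beside 23.3% and 19.6%. The counts of members called lower include ID1 and LDLRAD4, by whose values the set was chosen. In the authors' deposited table ID1 was at -0.51 (standard error 0.100) and -0.33 (standard error 0.105): untreated rescues had exceeded the knockout, and treated rescues were below it. ID3 kept a higher level with arsenite, at 0.82 and 1.01, as did SMAD7 at 1.06 and 0.85, in the authors' deposited table. Transgene and arsenite both differ between these groups. With the Wald statistics divided by their robust spread, no member other than LDLRAD4, whose fall chose the set, was called in either comparison.

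The 2 transgenes differ by the NTF2 domain. The test of their difference from the deposited values called none of the 9 members without arsenite, with arsenite or in the arsenite response, beside 0.0185%, 0.0785% and 0.328% of genes. Without and with arsenite, both fold changes are against the same knockout libraries, whose error enters the standard error of each. The test is therefore conservative there, with intervals that are too wide. Taking the shared error out moved no member across the threshold. At an unadjusted p under 0.05 the counts from the deposited values were 1 (LDLRAD4), 1 (SKIL) and 2 (ID1, ID3). LDLRAD4 and ID1 are members by whose values the set was chosen. The limma fit on the recovered reads called 1 (SMAD7), 1 (SKIL) and 0. Shares over all genes are not given for these unadjusted and limma counts. Without arsenite, wild-type minus NTF2-deletion rescue was -0.06 (standard error 0.132) for ID1, with a 95% interval of -0.32 to 0.20, and 0.04 (standard error 0.223) for ID3, with an interval of -0.40 to 0.47. For SMAD7 it was 0.27 (standard error 0.202), interval -0.12 to 0.67; its 2 groups did not overlap, and limma called it, at 0.28 (adjusted p = 0.04998). For LDLRAD4 it was -0.59 (standard error 0.236), interval -1.06 to -0.13, from groups that did not overlap, and limma gave -0.63 (adjusted p = 0.297). With arsenite, SKIL was 0.23 (standard error 0.114) higher in the wild-type rescue, interval 0.01 to 0.45, and limma called it at 0.21 (adjusted p = 0.0494). In the arsenite response, wild-type minus NTF2-deletion rescue was -0.23 (standard error 0.0983) for ID1 and -0.28 (standard error 0.135) for ID3. By limma these differences were -0.14 and -0.25. The deposited fold changes of the 2 rescues were shrunk by different amounts, which enters their difference. With the shrinkage undone, the response of ID1 was -1.30 in the wild-type and -1.14 in the NTF2-deletion rescue, against -1.26 and -1.04 as deposited. These tests did not show that the 2 transgenes act alike, and the NTF2-deletion transgene was the more abundant one, as given above for G3BP1.

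In the RIP, which asked which RNAs copurify with G3BP1 in 293 cells, 3 of the 4 ID genes and BAMBI were higher in the immunoprecipitate than in the input and the remaining inhibitors lower. The authors' deposited table called 4 members higher and 4 lower, beside 24.7% and 31.4% of all genes tested. Values of single RIP libraries could not be worked out, so only the deposited values are given. ID2 was at 0.97 (standard error 0.172, adjusted p = 6.42e-08), ID3 at 1.00 (standard error 0.147, adjusted p = 3.50e-11) and ID4 at 0.52 (standard error 0.112, adjusted p = 8.08e-06) in the authors' deposited table. ID1 was not called in the authors' deposited table, at 0.33 (standard error 0.196, adjusted p = 0.146). BAMBI was highest of the 9 in the authors' deposited table, at 1.07 (standard error 0.143, adjusted p = 3.32e-13).
Below the input lay SKIL, at -1.40 (standard error 0.166, adjusted p = 1.59e-16), and LDLRAD4, at -1.15 (standard error 0.245, adjusted p = 7.99e-06), in the authors' deposited table. SMAD6 was at -0.94 (standard error 0.148, adjusted p = 7.02e-10) and SMAD7 at -0.92 (standard error 0.202, adjusted p = 1.54e-05) in the authors' deposited table. The levels behind these values ran from a base mean of 78.4 for LDLRAD4 to 848 for ID4 in the authors' deposited table. Genes whose base mean was 100 or more had a median of 0.12; centring on it moved no member across the threshold, and with the Wald statistics divided by their robust spread no member was called. The 293 markers INA (base mean 747), NEFL (1078), EMX2 (75.6) and PAX2 (45.8) were present in the authors' deposited table, and NEFM was at 4.87. In U2OS, group means of NEFL ran from 229 to 795 reads in the second experiment and from 3080 to 4748 in the first. Those of EMX2 ran from 8.22 to 17.4 and from 32.1 to 351 in the same order. PAX2 was at 4.40 to 18.8 and at 44.8 to 254, whereas group means of INA did not pass 2.59 reads in U2OS.

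**Figure D4:**
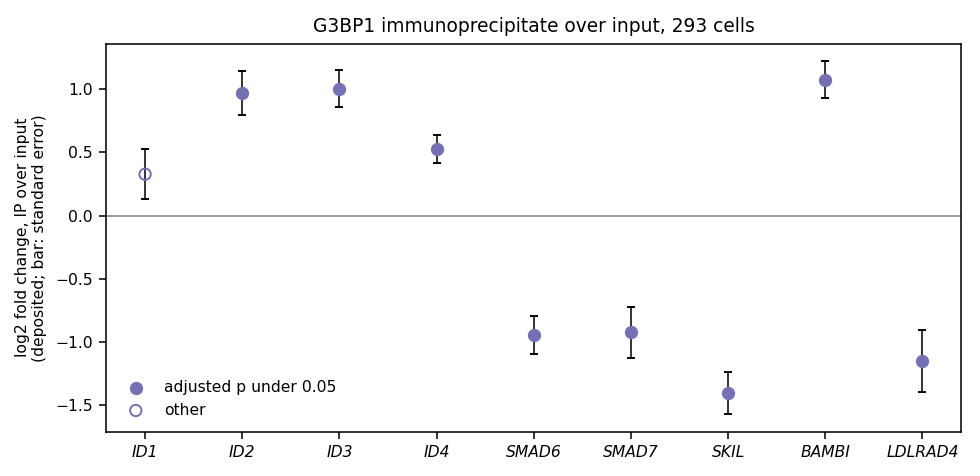
Log2 fold change of G3BP1 immunoprecipitate over input for each gene in 293 cells (deposited values; bars are the standard error; filled points have an adjusted p under 0.05). The ID genes and BAMBI lie above 0, with ID1 open, and SMAD6, SMAD7, SKIL and LDLRAD4 lie below.

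The other genes of the pathway were taken from a list of 89 genes in 7 roles, of which 9 were under a base mean of 10 in every table of the second experiment and are only counted. In the wild-type rescue over knockout, the authors' deposited table called 23 of 82 tested pathway genes higher (28.0%) and 35 lower (42.7%), beside 23% and 19.1% of all genes, and the same background holds for the role counts below; the median was -0.31, against -0.03 over all genes. Ligands were mostly lower, with 8 of 15 called lower and 3 higher. TGFB2, a TGF-beta ligand, went from 5844 and 5824 normalised reads in the knockout to 451 and 393 in the wild-type and 467 and 492 in the NTF2-deletion rescue. In the authors' deposited table TGFB2 was at -3.75 (standard error 0.0827) and -3.57 (standard error 0.0801), and TGFB3 at -3.36 (standard error 0.207) and -2.87 (standard error 0.189). BMP2, a BMP ligand, was 1 of the 3 that rose, from 166 and 176 to 490.1 and 505 in the wild-type rescue. For BMP2 the authors' deposited table gave 1.53 (standard error 0.180, adjusted p = 2.17e-16). Extracellular antagonists were called lower for 8 of 10 and higher for 1. Receptors were called higher for 3 and lower for 5 of 13, and signalling SMADs lower for 2 of 6. Among the receptors, ENG, the co-receptor endoglin, was at 1.42 (standard error 0.107) in the NTF2-deletion rescue in the authors' deposited table. For the NTF2-deletion rescue over knockout, 21 of 82 pathway genes were called higher and 34 lower in the authors' deposited table, 25.6% and 41.5% beside 22.8% and 18.7% of all genes.
Intracellular repressors, the role closest to the members, were called higher for 6 of 12 and lower for 3. NEDD4L, a ubiquitin ligase that targets SMADs and receptors, led them with 879 and 866 in the knockout and 3412 and 3455 in the wild-type rescue. The authors' deposited table gave NEDD4L 1.99 (standard error 0.0793). The E proteins and partners of ID were called higher for 2 and lower for 2 of 6, and TCF4 was at 979.9 and 1029 in the knockout and 230.4 and 238 in the wild-type rescue, -2.05 (standard error 0.140) in the authors' deposited table. Target genes split into 8 higher and 7 lower of 20, with THBS1 at 1.57 and CDKN2B at -4.77 in the authors' deposited table.

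With arsenite in the knockout, the authors' deposited table called 11 of 76 tested pathway genes higher and 22 lower, 14.5% and 28.9% beside 8.56% and 10.9% of all genes. Target genes were called higher for 7 of 19 and lower for 1. TAGLN, an actin-binding protein induced by TGF-beta, went from 272 and 322 to 6780.2 and 6075 normalised reads in the knockout and from 698 and 655 to 1052 and 1201 in the wild-type rescue. The authors' deposited table gave TAGLN 4.35 and 0.68, JUNB 2.12 and 0.67, and THBS1 1.84 in the knockout. Receptors were called lower for 9 of 11 and antagonists for 6 of 9, with none higher in either role. BMPR1B, a BMP receptor, was at -0.70 (standard error 0.192, adjusted p = 0.00260), TWSG1, a BMP-binding antagonist, at -0.88 (standard error 0.0878), and CHRDL1, another, at -0.75 (standard error 0.283, adjusted p = 0.0445) in the authors' deposited table. In the wild-type rescue the authors' deposited table called 9 of 71 higher and 18 lower, 12.7% and 25.4% beside 8.18% and 12.2% of all genes. GADD45B, a stress-induced target, was highest there at 0.69 (standard error 0.0967, adjusted p = 2.91e-11), and NOG (noggin, a BMP antagonist) lowest at -0.80 (standard error 0.0773, adjusted p = 4.85e-23), in the authors' deposited table. ENG followed at -0.60 and FST (follistatin) at -0.48 in the authors' deposited table. NOG fell alongside the ID genes in the knockout of the first experiment as well, from 6766 and 5872 in WT to 1106 and 969.7, with 2416 and 2554 in the rescue.
Knockout over WT in the first experiment had 22 of 87 pathway genes called higher (25.3%) and 33 lower (37.9%) in the authors' deposited table, beside 18.4% and 19.4% of all genes, with target genes at 3 higher and 12 lower of 20. CDKN2B was at 6.53, ATOH8, a BMP target, at 2.02 and INHBA, an activin subunit, at 1.70 in the authors' deposited table. At the other end were HAS2 at -3.02, COL1A1 at -2.73 and NOG at -2.58 in the authors' deposited table. In the RIP, the authors' deposited table called 18 of 85 higher and 34 lower, 21.2% and 40.0% beside 24.7% and 31.4% of all genes. Highest were BMP4 (1.91), STRAP (1.68) and TGIF1 (1.57) in the authors' deposited table. LTBP1 (-3.44), ACVR2B (-2.98) and TCF4 (-2.30) were lowest in the authors' deposited table. All 6 receptors called in the RIP were lower.

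**Figure D5:**
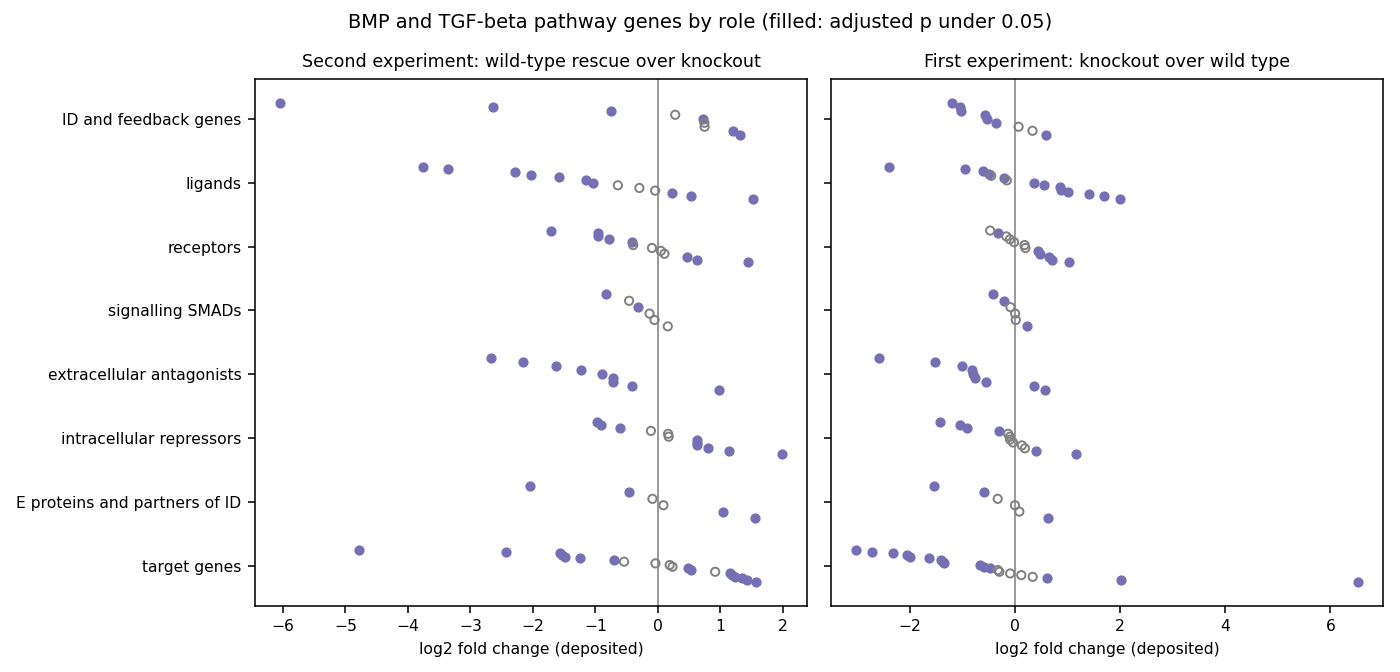
Deposited log2 fold changes (horizontal axis) of the 9 genes and of the listed pathway genes whose base mean was 10 or more, by role, for wild-type rescue over knockout (left) and for knockout over WT in the first experiment (right); filled points have an adjusted p under 0.05. On the left the ligands and extracellular antagonists lie mostly below 0, and LDLRAD4 (-6.04) is the leftmost point of the top row.

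Genes with the pattern most like a member were sought by Pearson correlation of log2 group means over the 6 groups of the second experiment among 10056 genes, which describes 6 points that share libraries. For ID1 these were KMT2D (r = 0.988), FJX1 (0.977), UCKL1 (0.975), MAN2C1 (0.975) and POLE (0.966), and 13 genes passed 0.95. Over the 12 single libraries r fell to 0.659 for UCKL1 and was 0.941 for POLE, and neither stayed among the genes most alike. SMAD7 was most like POLM (0.993), ENSG00000276805 (0.991), NPIPB4 (0.989), E4F1 (0.986) and MYC (0.986), and 101 genes passed 0.95. LDLRAD4, whose group means form a high and a low cluster, had PGP, AACSP1, ALDH3B1 and SHTN1 among the genes most like it, down to r = 0.9986, and 1124 genes passed 0.95. Among the members themselves, SMAD7 and ID3 had r = 0.919, ID1 and ID3 0.544, and LDLRAD4 and SMAD6 0.988.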

How the data were processed

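The data are 11 tables of the authors' own gene-level comparisons, from 24 of the series' 72 libraries; the other 48 were not analysed here. Per the labels' protocols, RNA was extracted with TRIzol, selected with oligo-dT and made into directional libraries; STAR and DESeq2 (version 2.11.40.6) are named in the submitters' processing notes, and the genome build is not given in the sources used here. Each deposited table holds a base mean (signal: mean reads over size factors) and a log2 fold change with its standard error. It also holds a Wald statistic (score), p-values and adjusted p-values, per the file headers. Tables without a header were read in the same order. The headers state neither shrinkage nor the method of adjustment. Shrinkage toward 0 was inferred from the standard errors, and the adjustment is taken to be Benjamini-Hochberg. A call is an adjusted p under 0.05. The members and lists were chosen with earlier results of these data known.

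Base means are sums of whole reads over size factors, so whole reads of all 12 libraries of the second experiment (38909 of 38909 genes with reads) and all 6 of the first (38453 of 38466) could be worked out; the 13 genes not solved are left out of library totals. Libraries of a group carry no replicate number this way. Reads were scaled by median-of-ratios size factors, and limma (3.58.1, voom, mean of at least 10 reads, R 4.3.3) was run on them as an alternative chosen after seeing the data. Differences between tables are the difference of the deposited log2 fold changes over the root of the summed squared standard errors, two-sided, normal, adjusted over genes whose base mean is 10 or more in both. Both were checked by simulation, with 200 genes altered each time. Between the rescues, the tests found 46% of the altered genes without arsenite and 55% with arsenite. Of the calls there, 8.91% and 4.35% were false. In the arsenite-response differences 70% to 95.5% were found, and 2.55% to 5.33% of calls were false. limma found 87.5% for arsenite in the knockout and 79% for knockout over WT, with 6.42% and 6.51% of calls false. The 4 summary lines of each table were left out of all computed values. Alternatives were other adjustments, minimum levels and centring, fold changes with the shrinkage undone, Wald statistics over their robust spread, and leaving out each library.

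Named pathway genes are, in each of 6 tables, the 3 highest and 3 lowest called whose base mean is 50 or more; TCF4 in the rescue, and CDKN2B, COL1A1 and NOG outside those tables, were added after their values were seen. A gene that the rule for most alike patterns names is not reported here.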

Additional observations from a re-analysis of the deposited data

Results flagged for a closer look

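Leaving out ID1, by whose fall the set was chosen, 3 members differed in arsenite response between backgrounds by the test of the difference itself. ID3 differed by -1.04 (standard error 0.187, adjusted p = 2.52e-06) between wild-type rescue and knockout and by -0.76 (standard error 0.193, adjusted p = 0.00255) between NTF2-deletion rescue and knockout, the response of the knockout being positive and those of the rescues negative. SMAD7 differed by -0.72 (standard error 0.168, adjusted p = 0.00102) and -0.60 (standard error 0.180, adjusted p = 0.0165) in the same comparisons. SKIL differed by -0.39 (standard error 0.117, adjusted p = 0.0150) between NTF2-deletion rescue and knockout. All values are log2 differences from the authors' deposited tables, with Benjamini-Hochberg adjustment over all genes tested. Their standard errors were not scaled by the robust spread of the Wald statistics. With that scaling no member was called for arsenite in the knockout. Within the NTF2-deletion rescue, the authors' deposited table did not call ID3 (adjusted p = 0.117), SMAD7 (adjusted p = 0.785) or SKIL (adjusted p = 0.750).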

How the results depend on the processing

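No member's value called under either setting changed sign; 22 small values with a test did, in 19 of the members' results, each called under neither setting (log2 scale). Centring turned BAMBI to -0.057 for the NTF2-deletion rescue over knockout, -0.064 and -0.19 for the treated wild-type and NTF2-deletion rescues over untreated knockout and 0.028 for knockout over the first rescue, SKIL to 0.032 for knockout over the first rescue and SMAD7 to 0.020 for WT over that rescue. limma turned BAMBI to -0.031 for the treated NTF2-deletion rescue over untreated knockout, and ID2 to -0.14 for the NTF2-deletion rescue minus knockout response and 0.060 for wild-type minus NTF2-deletion rescue. Leaving out each library in turn with limma turned others. The range in the wild-type rescue minus knockout response was -0.32 to 0.15 for ID2. The range in the NTF2-deletion rescue minus knockout response was -0.38 to 0.091 for ID2. The range in the response of wild-type minus NTF2-deletion rescue was -0.17 to 0.30 for ID2, -0.31 to 0.12 for ID4 and -0.16 to 0.075 for BAMBI. The range between the rescues without arsenite was -0.14 to 0.010 for ID1, -0.0051 to 0.26 for ID2, -0.085 to 0.16 for ID3, -0.076 to 0.28 for ID4, -0.015 to 0.075 for SMAD6 and -0.016 to 0.14 for SKIL. The range between the rescues with arsenite was -0.050 to 0.42 for ID2 and -0.20 to 0.22 for ID4. Recomputing the adjustment over genes whose base mean is 10 or more and centring each table left every member on the same side of the threshold in the 11 deposited tables. Undoing the shrinkage keeps each Wald statistic, so it could not move a call in those tables. Adjusting over all genes with a p lost 1 call, SMAD7 with arsenite in the wild-type rescue. Scaling Wald statistics down by their robust spread over genes left 0 members called for the immunoprecipitate over input and 0 for arsenite in the knockout. For arsenite in the wild-type rescue it left 2, ID3 and ID1, and the fall of ID1 chose the set. In the NTF2-deletion rescue, where ID1 was the only member called with arsenite, the spread was 1.29. The Wald statistic of ID1 there was -13.2 before scaling, and that fall of ID1 also chose the set. Each of the 4 comparisons of a rescue with the knockout kept 1 (LDLRAD4, by whose fall the set was also chosen). The counts were 0 for knockout over WT, 2 for knockout over the first rescue and 0 for WT over that rescue. With limma on the recovered reads, 2 members were called for arsenite in the NTF2-deletion rescue and 5 for the wild-type rescue minus knockout response. Both counts include ID1, by whose fall the set was chosen. Without ID1, limma called 1 for arsenite in the NTF2-deletion rescue. Between the rescues, limma called 1 member without arsenite and 1 with arsenite. Shares over all genes are not given for these counts. In all, 15 values of single members or counts passed the threshold that had not. For counts of members called, leaving out each library in turn gave 2 to 3 members for arsenite in the wild-type rescue, 1 to 2 in the NTF2-deletion rescue, 3 to 5 for WT over the first rescue and 4 to 5 for the wild-type rescue minus knockout response. An arm left with 1 library is taken to vary like the other groups. Shares over all genes are not given for these ranges either, and those of the deposited values belong to another test. ID4 passed the threshold in both differences from the knockout when genes under a base mean of 50 were left out or tables were centred. With arsenite in the NTF2-deletion rescue, the authors' deposited table called 6 of 64 tested pathway genes higher and 8 lower. These were 9.38% and 12.5%, beside 2.43% and 6.14% of all genes. Of these 14 pathway genes, 9 were called at an adjusted p under 0.01, for which no share over all genes is given. Over 12 libraries, 3 of the 5 genes most like ID1, 2 of those most like SMAD7 and 0 of those most like LDLRAD4 stayed among the top 5. No paired analysis was possible because the reads worked out from the base means do not carry the replicate numbers of the labels. Depth limits ID2, ID4, BAMBI and, in the rescues, LDLRAD4, all near or under 100 normalised reads in the second experiment.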
